A study of Mus musculus with 19 samples.

Results

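L1Md elements are the young mouse copies of LINE-1, the family of retrotransposons that still moves in the mouse genome. They were taken here as every entry of a deposited table of RepeatMasker elements, described there as intergenic, whose repeat name starts with L1Md. The rule gave 100781 of 2634743 elements under 6 names, of which L1Md_F2 had 51159, L1Md_T 18560, L1Md_A 13661, L1Md_F3 12885, L1Md_F 3558 and L1Md_Gf 958. A LINE-1 element that can move carries its own promoter in a CpG-rich 5′ untranslated region, followed by the open reading frames for an RNA-binding protein and for an endonuclease and reverse transcriptase. Most copies were cut short at the 5′ end when they were inserted, so that only the longest copies keep a promoter. In somatic tissues DNA methylation of that promoter is a main brake on transcription, and the A, T (Tf) and Gf groups are the ones known to hold copies that can still move, whereas the F groups are older.

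RNA reads on these elements were available for 6 libraries in 3 groups of 2. Visceral yolk sac endoderm (ysE, libraries A and B) and visceral yolk sac mesoderm (VYS mesoderm, libraries A and B) were both peeled from E9.25 FVB embryos, with litters pooled, and the mesoderm layer kept its blood vessels and basement membrane. Cystic embryoid bodies (cystic EBs), hollow spheres grown from embryonic stem cells, came after 10 and 15 days of differentiation from 1 stem cell clone, Bl6/129 Jennifer Nichols, on a C57Bl/6x129 background, so that the spread between those libraries also holds the difference between days 10 and 15. Whole-genome bisulfite sequencing (WGBS), which reads DNA methylation at CpG sites, was available for 6 other libraries, from ysE and liver at E12.5 and from cystic EBs at day 15 (clones CF clone C2 and FC clone A2), each from both crosses of the Cast and FVB strains (CastxFVB, called CxF, and FVBxCast, called FxC), with whole litters pooled for the tissues. Strain therefore differed between the RNA and the methylation libraries. Stage differed for ysE, whereas day 15 of cystic EBs was in both. No element was measured for both RNA and methylation in 1 sample. Peaks of the histone mark H3K4me3 came from 1 sample of whole VYS of FVB mice at E12.5.

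Some L1Md copies coincide with annotated gene starts, and 1 for each of 4 names is printed here with its CpGs. Which end of a copy is its promoter end is not known, since the table gives no strand. Of 32851 RefSeq promoter windows of assembly GRCm38.p6, 16 lay wholly inside an L1Md element of 5 kb or longer, with 9 in L1Md_F2, 4 in L1Md_T, 2 in L1Md_F and 1 in L1Md_A. Of those on the 16 chromosomes with CpG calls in every WGBS library, the window with the most CpGs for each name is printed below over the 250 bases before the gene's start, 5′ to 3′ on the gene's strand, with each CpG in capitals. They lie at chr11:41710094-41710343 (plus strand, before A230004M16Rik, in L1Md_A), chr12:77553461-77553710 (plus strand, before Gm35240, in L1Md_T), chr14:19617948-19618197 (minus strand, before Gm41102, in L1Md_F) and chr5:44965951-44966200 (plus strand, before 4930431F12Rik, in L1Md_F2). The L1Md_T window before Gm5636 on chromosome X was thereby left out, with 19 CpGs over its whole length against 16 before Gm35240.
L1Md_A: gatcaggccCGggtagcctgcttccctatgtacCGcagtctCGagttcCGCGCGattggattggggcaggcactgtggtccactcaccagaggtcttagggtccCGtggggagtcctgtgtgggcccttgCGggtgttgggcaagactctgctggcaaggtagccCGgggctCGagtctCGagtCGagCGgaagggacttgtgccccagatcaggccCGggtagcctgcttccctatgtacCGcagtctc
L1Md_T: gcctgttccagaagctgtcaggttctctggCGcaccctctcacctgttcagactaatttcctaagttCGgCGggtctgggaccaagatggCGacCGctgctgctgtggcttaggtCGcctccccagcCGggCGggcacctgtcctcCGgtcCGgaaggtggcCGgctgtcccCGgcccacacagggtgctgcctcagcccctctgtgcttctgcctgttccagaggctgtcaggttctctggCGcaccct
L1Md_F: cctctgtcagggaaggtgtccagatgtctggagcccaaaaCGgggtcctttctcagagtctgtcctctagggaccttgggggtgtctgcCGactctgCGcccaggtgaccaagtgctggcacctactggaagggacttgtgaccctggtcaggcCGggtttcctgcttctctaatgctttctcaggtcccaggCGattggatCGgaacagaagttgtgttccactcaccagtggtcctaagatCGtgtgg
L1Md_F2: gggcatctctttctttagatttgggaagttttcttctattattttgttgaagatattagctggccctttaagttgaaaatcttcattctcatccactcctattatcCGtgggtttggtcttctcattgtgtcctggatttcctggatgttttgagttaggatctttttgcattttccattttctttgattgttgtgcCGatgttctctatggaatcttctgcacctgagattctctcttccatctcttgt
The L1Md_A window held 15 CpGs and the L1Md_T window 13, and 27.3% and 31.5% of all RefSeq windows of this length held as many or more. Both lay close to an end of their element, 154 and 63 bases from it. They also repeated themselves, as the tandem monomers of these groups are known to do. Shifted by 208 bases, the L1Md_A window matched itself at 42 of 42 bases, and shifted by 212 bases the L1Md_T window did so at 37 of 38. The L1Md_F window held 7 CpGs, 57 bases from an end, and the L1Md_F2 window, 938 bases from the nearer end, held 2, against a median of 6 over all windows. The letters AAGATGG, the core of the site bound by the zinc finger factor YY1, were searched on both strands and occurred once, in the L1Md_T window, while 4.49% of all windows of this length held them.

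The 6 RNA libraries held 86063967 to 188223399 counts on repeats, of which 65.9 to 79.4% fell on repeats of RNA genes. The WGBS libraries held 85339 to 191791 CpG calls in L1Md elements, and 1.80 to 2.21 reads per call over all calls. Markers followed the labels, with a caveat for each group. The summed RPKM of 5 ysE genes (Afp, Ttr, Apoa1, Amn and Cubn) was 9429 and 10763 in ysE, 1036 and 1828 in VYS mesoderm and 121 and 443 in cystic EBs. That of 5 mesoderm and vessel genes (Kdr, Pecam1, Col1a1, Acta2 and Wt1) was 386 and 379 in VYS mesoderm, 13.2 and 23.4 in ysE and 33 and 129 in cystic EBs. Most of the sum in cystic EBs was Acta2, at 24.7 and 102. Col1a1 alone of the 5 had a lower mean there than in ysE, at 2.43 and 14.0 against 7.73 and 15.5. The embryonic globin gene Hbb-y stood at 18741 and 13955 RPKM in VYS mesoderm, 333 and 419 in ysE and 22.9 and 42.4 in cystic EBs, and Hba-x, another, at 3884 and 3741, 73.6 and 83.7, and 6.89 and 12.6. The pluripotency genes Pou5f1, Nanog and Zfp42 summed to 137 and 84.1 in cystic EBs against at most 5.53 elsewhere. The part of blood, of carried-over endoderm or of undifferentiated cells in the results below was not tested.

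Most members were fragments, while the long copies held much of the sequence. Of the 100781 elements, 68826 were under 1 kb, and 11254 were 5 kb or longer, which is called long below. The long copies held 44.3% of the L1Md bases, and all members together 17.9% of the bases in the table. L1Md_T had 4095 long copies, L1Md_F2 3436, L1Md_A 2755, L1Md_F3 727, L1Md_F 147 and L1Md_Gf 94. Among L1 elements of other names, 1751 of 571000 were long. A read in at least 1 library was found on 93555 members, and 7226 had none.

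L1Md reads were more abundant in cystic EBs and in VYS mesoderm than in ysE. Of the counts on repeats other than RNA genes, L1Md elements took 23.1 and 24.1% in cystic EBs (days 10 and 15), 9.99 and 8.08% in ysE and 20.9 and 19.6% in VYS mesoderm. The groups of cystic EBs and ysE did not overlap, and neither did those of VYS mesoderm and ysE. L1 elements of other names took 7.18 and 7.31%, 5.59 and 5.16%, and 7.41 and 7.34% of the same counts. In such bulk libraries, fewer cells with L1Md RNA and less L1Md RNA per cell cannot be told apart.

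The 6 names were tested on summed counts with edgeR's quasi-likelihood test, fitted over 1190 repeat names, and a name was called at an adjusted p (Benjamini-Hochberg) under 5%. All 6 were higher in cystic EBs than in ysE, where 16.9% of all names tested were called higher, and all 6 were higher in VYS mesoderm than in ysE, where 9.58% were. L1Md_Gf alone was called higher in cystic EBs than in VYS mesoderm, where 1.51% were. The levels are given below as RPKM, here reads per kb of element with the library size taken as the counts on repeats other than RNA genes, a scale that allows names to be compared.

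L1Md_T, the name with the most reads, stood at 4.03 and 4.33 in cystic EBs, against 1.67 and 1.31 in ysE, with 3.28 and 3.19 in VYS mesoderm. It was 2.96-fold higher in cystic EBs than in ysE (log2 difference 1.57, SE 0.13, edgeR adjusted p = 0.00236) and 2.06-fold higher in VYS mesoderm than in ysE (log2 difference 1.05, SE 0.13, adjusted p = 0.0109). Both cystic EB libraries also lay above both VYS mesoderm libraries, by 0.52 on the log2 scale (SE 0.13), which missed the threshold (edgeR adjusted p = 0.104). L1Md_Gf, the smallest group, stood at 2.83 and 3.13 in cystic EBs, against 0.852 and 0.660 in ysE, with 1.64 and 1.65 in VYS mesoderm. Its 3 groups were separate and in that order, with 4.15-fold more in cystic EBs than in ysE (log2 difference 2.05, SE 0.13, adjusted p = 0.000932) and 2.01-fold more than in VYS mesoderm (log2 difference 1.01, SE 0.13, adjusted p = 0.0152). The call of L1Md_Gf between cystic EBs and VYS mesoderm was lost without chromosomes 1 to 3 (log2 difference 0.92, edgeR adjusted p = 0.0530) and without any 1 of the 4 libraries of these groups (log2 difference 0.99 to 1.05, adjusted p from 0.0865 to 0.134), and over all alternatives its adjusted p ran from 8.65e-09 with DESeq2 to 0.134. L1Md_A stood at 1.88 and 1.79 in cystic EBs, against 0.814 and 0.690 in ysE, with 2.07 and 1.80 in VYS mesoderm. It was 2.57-fold and 2.44-fold higher than ysE in those groups (log2 differences 1.36 and 1.29, each with SE 0.14, adjusted p = 0.00256 and 0.0102), and cystic EBs and VYS mesoderm overlapped.

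The older F groups had lower levels per kb in every library. L1Md_F stood at 0.253 and 0.237 in cystic EBs, against 0.135 and 0.0962 in ysE, with 0.295 and 0.242 in VYS mesoderm. L1Md_F2 stood at 0.183 and 0.178, 0.126 and 0.114, and 0.25 and 0.219 in the same groups. L1Md_F3 stood at 0.199 and 0.191, 0.135 and 0.124, and 0.260 and 0.223. Their log2 differences from ysE were 1.17, 0.66 and 0.67 in cystic EBs and 1.15, 0.89 and 0.82 in VYS mesoderm, with edgeR adjusted p between 0.00909 and 0.0168. For L1Md_F, L1Md_F2, L1Md_F3 and also L1Md_A the highest library was VYS mesoderm A, and for L1Md_T and L1Md_Gf it was cystic EBs at day 15. Scaled to the counts of RefSeq transcripts instead of repeats, a scaling added after seeing the data, the median log2 difference of all 1190 names from ysE was -0.29 in cystic EBs and -0.31 in VYS mesoderm, in place of 0.02 and 0.01, 4 of 6 L1Md names were called higher in each of the other groups, and no L1Md name turned negative against ysE (lowest log2 difference 0.36). That scaling also moved the share of all calls that were higher from 49.6% to 19.8% for cystic EBs and from 47.1% to 15.7% for VYS mesoderm. Single libraries mattered too, since without VYS mesoderm A no L1Md name was called by edgeR in VYS mesoderm against ysE (6 at an unadjusted p under 0.05), and without the day 10 library 3 were called in cystic EBs against ysE.

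**Figure D1:**
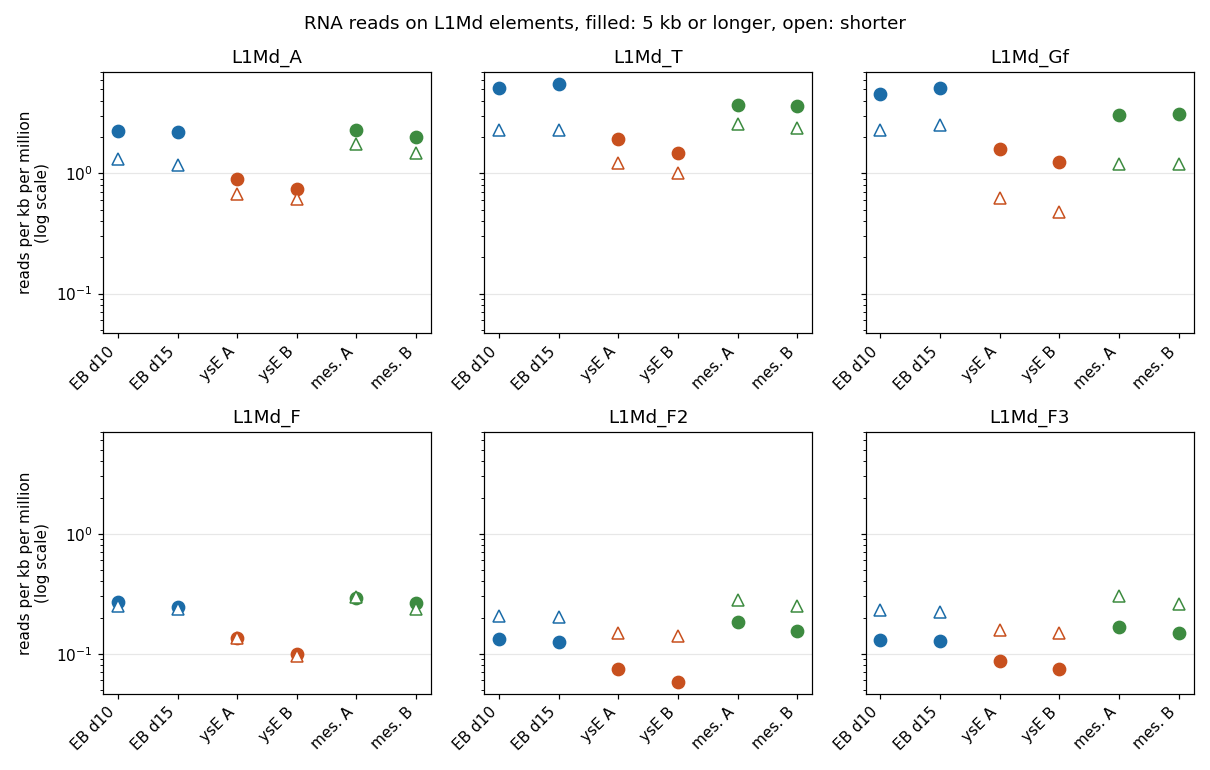
RNA level in RPKM, scaled to counts on repeats other than RNA genes (log scale), for each L1Md name in each of the 6 libraries, with filled points for elements of 5 kb or longer and open points for shorter ones. Both ysE libraries lie below the other 4 for every name, and the long copies of L1Md_T reach 5.10 and 5.58 in cystic EBs against 1.94 and 1.49 in ysE.

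The reads were spread very unevenly over the chromosomes. Chromosome 1 held 7.29% of the bases of long L1Md copies but 65.3 to 68.6% of their reads, depending on the library, and chromosomes 1 to 3 held 20.6% of the bases and 79.8 to 81.7% of the reads. For long L1Md_T copies the level fell from a mean over libraries of 31.5 on chromosome 1 to 4.52 on chromosome 2, 0.703 on chromosome 10 and 0.469 on chromosome 19. For long L1Md_A copies it was 15.4, 2.63, 0.401 and 0.336 on the same chromosomes. The levels thus fell along most of the numbering of the chromosomes, with exceptions such as chromosome 13 (1.08 for long L1Md_T copies). Long L1Md_F2 copies (21.7 to 28.2% of reads on chromosome 1) and L1 elements of other names (13 to 15.9%) showed less of it. How reads that match many copies were assigned is not given in the sources used here, and its part in this pattern was not tested. With the assignment unknown, a read count on 1 young copy is not taken here as that copy's own RNA. The shares on chromosome 1 were close in all 6 libraries. Without chromosomes 1 to 3, L1Md levels were 0.454 and 0.431 in cystic EBs, against 0.209 and 0.174 in ysE, with 0.429 and 0.384 in VYS mesoderm, still without overlap between ysE and the others.

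**Figure D2:**
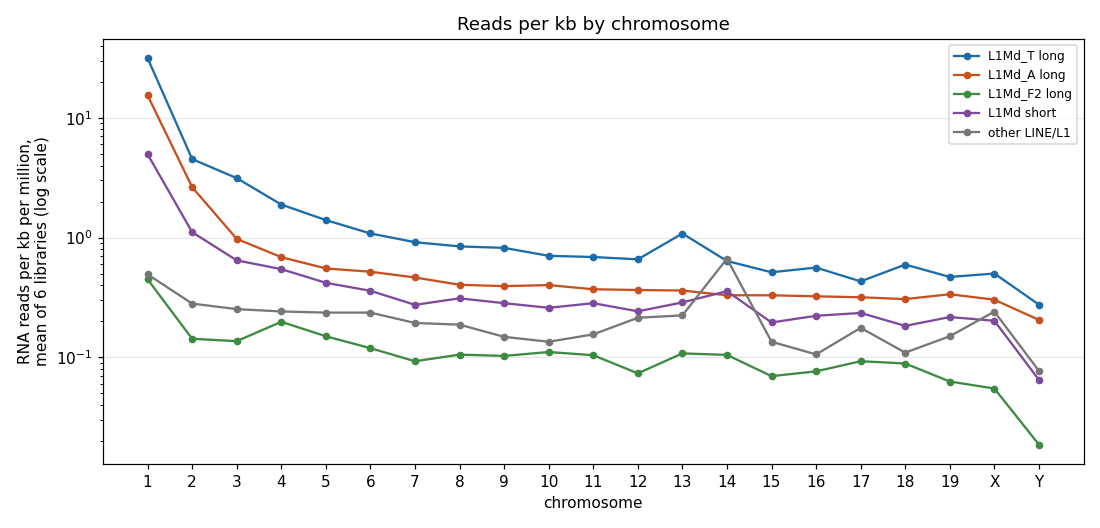
RNA level in RPKM, scaled to counts on repeats other than RNA genes (mean of the 6 RNA libraries, log scale) by chromosome for long copies of 3 L1Md names, for short L1Md copies and for L1 elements of other names. Long L1Md_T copies fall from 31.5 on chromosome 1 to 0.469 on chromosome 19.

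Long copies carried more reads per kb than short ones in the A, T and Gf groups, and fewer in L1Md_F2 and L1Md_F3. Without chromosomes 1 to 3 this did not hold for L1Md_A in ysE, where long copies stood at 0.203 and 0.166 and short ones at 0.214 and 0.189, and in VYS mesoderm B they were nearly level at 0.451 and 0.445. Of all L1Md counts, long copies took 72.2 and 73.9% in cystic EBs, against 65.1 and 62.8% in ysE, with 63.8 and 65.4% in VYS mesoderm. By length, elements of 7 kb or more stood at 6.79 and 7.41 in cystic EBs, against 2.46 and 1.87 in ysE, with 4.55 and 4.57 in VYS mesoderm, and those of 4 to 5 kb at 0.755 and 0.740, 0.347 and 0.271, and 0.759 and 0.691. In every length class below 3 kb both VYS mesoderm libraries lay above both cystic EB libraries, and in every class from 5 kb on the order was the reverse.

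The ratio of long to short copies was tested with limma on the log2 scale over 65 names. In cystic EBs against ysE it was higher for 3 names, where 30.8% of all names tested were called higher, and lower for 1, where 16.9% were called lower. The median log2 difference over all 65 names was 0.37 in cystic EBs against ysE, 0.48 in VYS mesoderm against ysE and -0.08 in cystic EBs against VYS mesoderm, so that a higher ratio than in ysE was not particular to L1Md names. For L1Md_T, long copies stood at 5.10 and 5.58 in cystic EBs, against 1.94 and 1.49 in ysE, with 3.70 and 3.67 in VYS mesoderm, and short copies at 2.3 and 2.29, 1.21 and 1.0, and 2.59 and 2.39. Its ratio was 1.5-fold higher in cystic EBs than in ysE (log2 difference 0.59, SE 0.07, limma adjusted p = 0.0010). For L1Md_A, long copies stood at 2.26 and 2.20, 0.903 and 0.743, and 2.28 and 2.01 in cystic EBs, ysE and VYS mesoderm, and short copies at 1.31 and 1.18, 0.680 and 0.610, and 1.75 and 1.49. The ratio of L1Md_A was higher by 0.49 (SE 0.06, adjusted p = 0.00146) and that of L1Md_F2 by 0.47 (SE 0.10, adjusted p = 0.0137). In short copies of L1Md_A and L1Md_T both cystic EB libraries lay below both VYS mesoderm libraries, while in long copies of L1Md_T they lay above them. Without chromosomes 1 to 3 short L1Md_T copies overlapped between these groups, at 0.709 and 0.649 in cystic EBs and 0.775 and 0.705 in VYS mesoderm.

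Against VYS mesoderm, the ratio in cystic EBs was higher for L1Md_T (log2 difference 0.65, SE 0.07, adjusted p = 0.00153) and L1Md_A (0.43, SE 0.06, adjusted p = 0.00439), where 12.3% of all names tested were called higher. In VYS mesoderm against ysE it was higher for L1Md_F2 alone (0.48, SE 0.10, adjusted p = 0.0316), where 24.6% were called higher. L1Md_Gf went the other way, lower in cystic EBs than in ysE by 0.35 and than in VYS mesoderm by 0.34, where 10.8% were called lower. Its 94 long copies depended on the chromosomes counted, and without chromosomes 1 to 3 the difference turned to 0.06 and 0.21 (limma adjusted p = 0.836 and 0.477). Without the most-read 1% of elements, 2 names were called in cystic EBs against ysE and none in VYS mesoderm against ysE (1 at an unadjusted p under 0.05). Without the day 10 library or ysE B, 2 names were called in cystic EBs against ysE, and without any 1 library other than ysE A the call of L1Md_F2 in VYS mesoderm was lost (1 name at an unadjusted p under 0.05 each time).

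**Figure D3:**
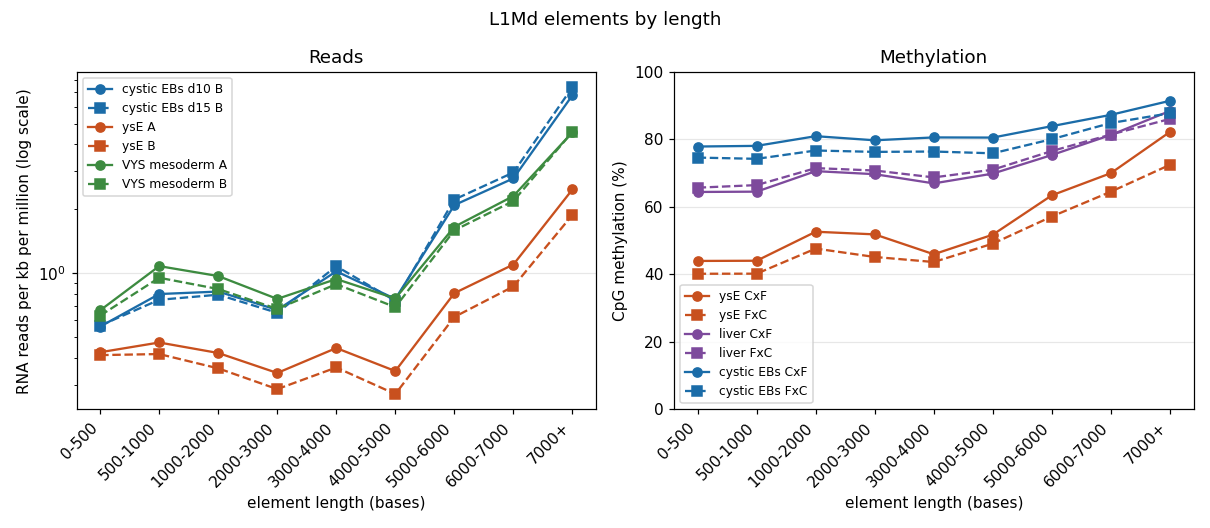
L1Md elements by length in bases, with the RNA level in RPKM, scaled to counts on repeats other than RNA genes, on the left (log scale, 6 RNA libraries) and CpG methylation in percent on the right (6 WGBS libraries). Both measures are highest in elements of 7 kb or more, where methylation is 82.2 and 72.5% in ysE and 91.4 and 87.7% in cystic EBs.

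Single elements were tested by edgeR over 239554 repeats, 29325 of them L1Md. In cystic EBs against ysE 1640 L1Md elements were called higher and 169 lower, where 3.4% of all elements tested were called higher and 8.63% lower. Of the 8873 long members tested 1283 were higher (14.5%), and of the 20452 short ones 357 were (1.75%). L1Md_T had 1101 higher and 32 lower of 11306, L1Md_A 337 and 19 of 6976, and L1Md_Gf 84 and 1 of 408. L1Md_F2 had 88 higher and 94 lower of 8340, L1Md_F3 23 and 20 of 1745, and L1Md_F 7 and 3 of 550. In VYS mesoderm against ysE 8 were higher and 11 lower, where 0.283% of all elements were called higher and 0.96% lower. In cystic EBs against VYS mesoderm none was called by edgeR, where 0% of all elements were, while 3089 L1Md elements had an unadjusted p under 0.05 and DESeq2 called 1122. These counts are not firm, and the lack of a call does not show that an element did not differ. On data simulated from a sample of elements this test recovered none of the changes made. It did call elements in the full data, so that the simulation does not give its power there. Leaving out any 1 of the 6 libraries brought the called counts to 0, with 3450 to 4796 L1Md elements at an unadjusted p under 0.05 for cystic EBs against ysE and 2096 to 4852 for VYS mesoderm against ysE. With a minimum count of 30, 1382 members were called in VYS mesoderm against ysE, 1307 of them higher, so that the balance of directions turned.

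The 3 long members with the highest mean CPM (counts scaled to library size) were L1Md_T copies on chromosome 1, at chr1:36951189-36957466, chr1:13730906-13737328 and chr1:30660609-30667036. The first stood at 253 and 291 CPM in cystic EBs, against 122 and 101 in ysE, with 189 and 187 in VYS mesoderm. The other two stood at 246 and 244 CPM in cystic EBs at day 10 and at 97.1 and 97.2 CPM in ysE B. All 3 had close values in each library and lie on the chromosome with most of the L1Md reads.

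The largest called changes were on short fragments. A 298-base L1Md_F2 fragment at chr1:14091732-14092029 had 109 and 152 counts in cystic EBs, 73 and 92 in VYS mesoderm and 0 and 0 in ysE. Against a floor of 3 counts over both ysE libraries it was at least 74.1-fold higher in cystic EBs and at least 54.7-fold higher in VYS mesoderm (edgeR adjusted p = 0.0153 and 0.0438). A 70-base L1Md_A fragment at chr1:30741515-30741584 had 150 and 181 counts in cystic EBs, 212 and 82 in VYS mesoderm and 0 and 1 in ysE, a ratio of 282 between cystic EBs and ysE with a 95% counting interval of 50.3 to 11169. An 82-base L1Md_F3 fragment at chr4:145774114-145774195 had 69 and 97 counts in VYS mesoderm and 1 and 1 in ysE, a ratio of 82.5 with an interval of 22.5 to 687. Each of these 3 had at most 1 count per ysE library.

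Other fragments went the opposite way. A pair of 385-base L1Md_F2 fragments at chrX:73130372-73130756 and chrX:73135736-73136120 had nearly the same counts as each other in each library and may share reads. The second had 634 and 872 counts in ysE, 47 and 55 in VYS mesoderm and 2 and 2 in cystic EBs, and fell by 8.71 on the log2 scale in cystic EBs (SE 0.38, edgeR adjusted p = 0.0147). In VYS mesoderm, an L1Md_F2 fragment at chr3:20057034-20057167 had 7 and 3 counts against 597 and 1136 in ysE. Another at chr17:6414917-6415451 had 4 and 2 counts against 206 and 349. Reads on such fragments can belong to longer transcripts that run through them, which was not tested.

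CpG methylation of L1Md elements was lowest in ysE, higher in liver and highest in cystic EBs. Methylation is given as the percent of methylated reads over all CpG calls in an element set, on the 16 chromosomes with calls in every library. Over all L1Md elements it was 57.7 and 51.6% in ysE (CxF and FxC), then 72.6 and 73.9% in liver, then 82.3 and 78.6% in cystic EBs. Over all CpG calls it was 67.7 and 60.1%, 77.6 and 79.8%, and 86.9 and 82.6%, and over L1 elements of other names 52.0 and 41.9%, 70.8 and 72.4%, and 82.9 and 75.5%. L1Md elements thus followed the order seen over all calls, and the low level in ysE was not theirs alone. The 95% Wilson intervals of the percentages by name were within 0.169 to 2.86 points on either side and cover counting error only.

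Some chromosomes stood apart in single libraries. Chromosome 4 of ysE CxF was 53.3% methylated against 68.0 to 71.2% on its chromosomes other than 3, 4 and 6. Chromosome 3 of ysE FxC was 52.5% methylated against 59.2 to 62.5%. Chromosome 6 of liver CxF was 88.4% methylated against 76.1 to 79.6%. Results were therefore also computed without chromosomes 3, 4 and 6, where L1Md methylation was 61.5 and 53.0% in ysE, then 72.5 and 74.3% in liver, then 82.6 and 78.8% in cystic EBs.

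The names were tested with limma on the log2 ratio of methylated to unmethylated reads over all repeat names with at least 100 reads in every library. All 6 L1Md names were lower in ysE than in liver, where 90.1% of all names tested were called lower, and all 6 were higher in cystic EBs than in ysE, where 97.8% were called higher. L1Md_A, L1Md_F2, L1Md_F3 and L1Md_T were higher in cystic EBs than in liver, where 31.1% were called higher. Against this background the direction of the L1Md names was that of nearly all repeats. L1Md_A was 67.5 and 62.9% methylated in ysE, then 78.7 and 80.5% in liver, then 87.6 and 84.9% in cystic EBs (log2 ratio lower in ysE than in liver by 1.06, SE 0.19, limma adjusted p = 1.71e-06). L1Md_T was 64.1 and 56.7%, 77.2 and 78.0%, and 85.0 and 82.5% methylated in the same order. L1Md_F2, the name with the lowest level in all 6 libraries, was 42.2 and 39.3% methylated in ysE, then 63.8 and 65.6% in liver, then 76.4 and 72.3% in cystic EBs. For none of these 3 names did ysE overlap with the other tissues. L1Md_Gf had the smallest log2 difference of the 6 names between ysE and either other tissue, with 71.7 and 63.9%, 80.1 and 78.9%, and 85.4 and 81.6%. L1Md_F was 52.7 and 47.5%, 68.4 and 71.0%, and 79.2 and 74.2% methylated in ysE, liver and cystic EBs. L1Md_F3 was 45.8 and 43.1%, 67.1 and 67.5%, and 78.2 and 74.9% methylated. The calls between cystic EBs and liver rested on few libraries: without chromosomes 3, 4 and 6 there were 2, and without liver CxF, liver FxC or cystic EBs CxF there were none, with 3 names each time at an unadjusted p under 0.05.

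**Figure D4:**
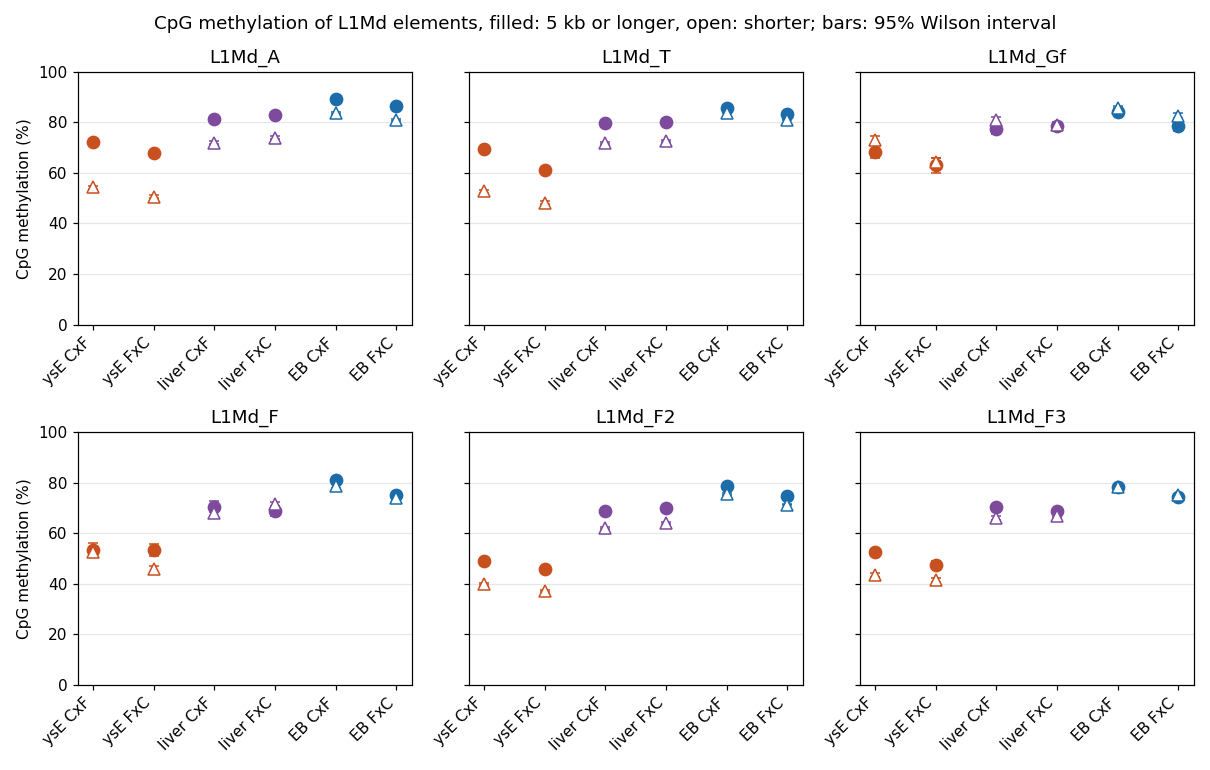
CpG methylation in percent of each L1Md name in the 6 WGBS libraries, with filled points for elements of 5 kb or longer, open points for shorter ones and bars for the 95% Wilson interval. Long copies of L1Md_A and L1Md_T lie above short ones by 17.6 and 14.8 points on average in ysE and by 5.79 and 1.94 points in cystic EBs.

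Over pooled reads of whole copies, long copies were more methylated than short ones, and most so in ysE. Where along the copies this gap lay is given further below. In ysE, long L1Md copies were 67.0 and 60.3% methylated and short ones 47.0 and 43.0%. In liver the values were 78.1 and 78.9% against 66.8 and 68.4%, and in cystic EBs 85.4 and 82.0% against 79.2 and 75.3%. L1 elements of other names showed no such rise, with 42.9 and 36.6% in long and 52.2 and 42.0% in short copies of ysE. All repeats other than L1Md as a whole did, with 83.7 and 79.8% in long and 63.1 and 55.5% in short copies of ysE, so that the rise was not particular to L1Md.

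By name, the gap between long and short copies in ysE was 18.1 and 17.1 points (CxF and FxC) for L1Md_A, 16.5 and 13.1 for L1Md_T, 9.29 and 8.73 for L1Md_F2 and 8.88 and 6.03 for L1Md_F3. In liver it was 9.37 and 8.89, 7.80 and 7.51, 7.04 and 5.77, and 4.42 and 1.89 points for these names, and in cystic EBs 5.69 and 5.89, 1.82 and 2.05, 3.04 and 3.49, and 0.251 and -0.805. L1Md_Gf had the reverse gap in every library, from -0.617 to -4.53 points. For L1Md_A and L1Md_T both ysE libraries had a wider gap than any other library. Long copies were called more methylated than short ones by limma, over 33 names, for L1Md_A, L1Md_T, L1Md_F2 and L1Md_F3 in ysE, where 45.5% of names were, for the first 3 of these in liver, where 39.4% were, and for the same 3 in cystic EBs, where 15.2% were. Without either cystic EB library 1 of the last 3 was called (2 at an unadjusted p under 0.05).

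The difference between tissues was tested in the same fit. The gap on the log2 ratio scale was wider in ysE than in liver for L1Md_A (by 0.32, SE 0.09) and L1Md_T (by 0.28, SE 0.07, limma adjusted p = 0.00638 for both), the only 2 names called, which made 6.06% of those tested. It was narrower in cystic EBs than in liver for L1Md_T alone (by -0.41, SE 0.07, adjusted p = 9.09e-06), where 3.03% were called narrower. It was narrower in cystic EBs than in ysE for L1Md_T (-0.69), L1Md_F3 (-0.45), L1Md_A (-0.42) and L1Md_F2 (-0.28), with limma adjusted p from 1.56e-13 to 0.0138, where 18.2% were. The calls between ysE and liver depended on the length limit, and with a limit of 3 or 6 kb there were none (2 and 0 at an unadjusted p under 0.05). They also fell to 0 without either liver or either cystic EB library, which shared in the estimate of the spread (2 at an unadjusted p under 0.05 each time). Between cystic EBs and ysE, 2 names were called without cystic EBs CxF and 1 without cystic EBs FxC. Between cystic EBs and liver, none was called without cystic EBs CxF (1 at an unadjusted p under 0.05) and 3 without either ysE library.

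Within long copies, methylation was higher in the first kb from the end that was rich in CpG calls than in the rest, other than for L1Md_Gf in cystic EBs, where it was 83.9 and 77.1% in the first kb and 84.1 and 78.9% in the rest of 55 elements. This split was chosen after seeing the data. An element entered if its outermost 1 kb on both sides together held at least 12 calls over all libraries, with at least 3-fold more on the richer side, which gave 4760 of 8357 long members. The table has no strand, so that the richer side stands in for the promoter end. In L1Md_A (1568 elements), the first 500 bases were 78.7 and 76.0% methylated in ysE, then 86.5 and 87.8% in liver, then 92.8 and 91.2% in cystic EBs. Between 3 and 4 kb from that end the same elements were 44.3 and 40.6%, 68.6 and 73.6%, and 83.9 and 81.7% methylated. The distance between ysE and the other tissues was thus wider in the reads of the body than in those of the end.

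For L1Md_T (2123 elements) the first 500 bases were 76.1 and 67.9%, 85.3 and 85.3%, and 86.2 and 83.7% methylated in ysE, liver and cystic EBs, and the stretch from 3 to 4 kb 43.8 and 42.0%, 70.5 and 75.0%, and 83.9 and 81.9%. In ysE the stretch from 3 to 4 kb had 1190 and 1249 reads, against 30028 and 23071 in the first 500 bases. Over all L1Md, the first kb exceeded the rest by 25.4 and 24.1 points in ysE, then 12.53 and 12.07 in liver, then 5.04 and 5.67 in cystic EBs. Both ysE libraries exceeded the other 4 for each of the 6 names, also without chromosomes 3, 4 and 6, where the difference over all L1Md was 21.3 and 23.7 points in ysE. It was not particular to L1Md, since 157 long L1 elements of other names showed 26.0 and 21.8, 7.50 and 10.9, and 6.65 and 4.76 points. The rest of long L1Md copies was 50.1 and 45.5% methylated in ysE, 71.9 and 72.9% in liver, then 83.6 and 80.6% in cystic EBs. Short L1Md copies were at 47.0 and 43.0%, 66.8 and 68.4%, and 79.2 and 75.3%, so that this gap was not widest in ysE. In ysE the rest of L1Md_A (52.4 and 48.2%) and L1Md_T (52.6 and 47.1%) lay below their short copies (54.2 and 50.6%, 52.8 and 48.1%). In liver and cystic EBs it lay above them.

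**Figure D5:**
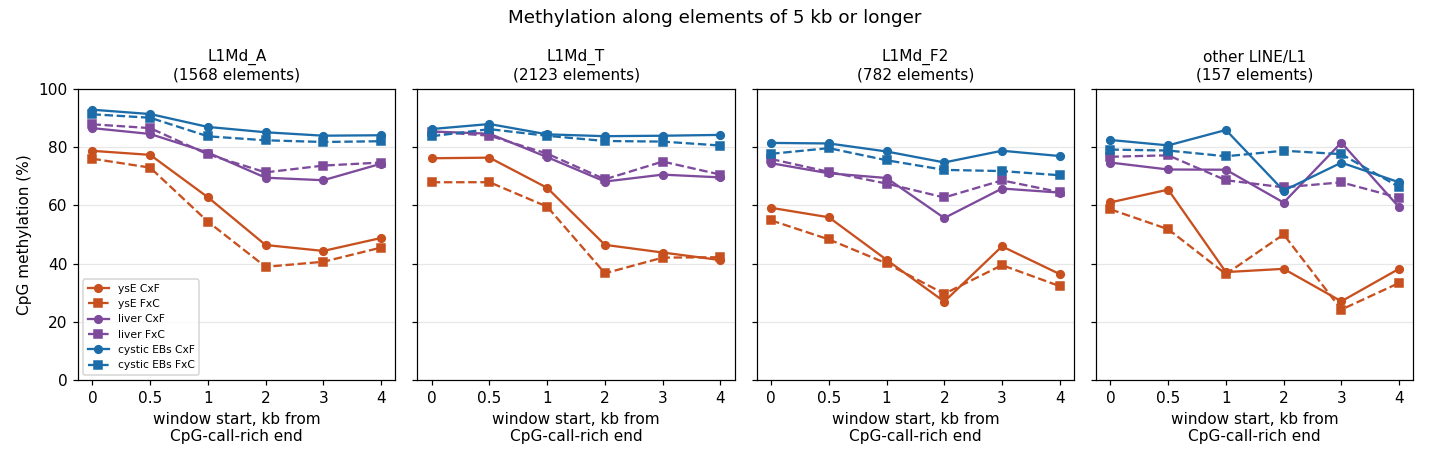
CpG methylation in percent along elements of 5 kb or longer, by the start of the window in kb from the end rich in CpG calls, for L1Md_A, L1Md_T, L1Md_F2 and L1 elements of other names in 6 WGBS libraries (solid CxF, dashed FxC). In ysE L1Md_A falls from 78.7 and 76.0% in the first 500 bases to 44.3 and 40.6% at 3 to 4 kb, and in cystic EBs from 92.8 and 91.2% to 83.9 and 81.7%.

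Percentages of single copies varied widely, a spread that includes counting error, since a copy could enter with 20 reads in a library. At least 20 reads in every library were found for 748 of the 73169 members on the 16 chromosomes, 680 of them long. Among these 680 long copies the median methylation was 74.1 and 67.4% in ysE, then 81.3 and 83.6% in liver, then 89.3 and 86.5% in cystic EBs. The 68 short copies with such coverage had higher medians in every library, at 74.9 and 70.0%, 85.3 and 85.3%, and 92.3 and 89.2%. The higher level of long copies over pooled reads was thus not seen among these single copies. Of the long copies, 76 and 134 were under 50% methylated in ysE, then 11 and 5 in liver, then 0 and 2 in cystic EBs. In ysE these were 11.2 and 19.7% of the long copies, where 98 and 168 of all 2183 repeats with such coverage (4.49 and 7.70%), the long L1Md copies included, were under 50%. Without chromosomes 3, 4 and 6 they were 34 and 70 of 478 long copies (7.11 and 14.6%), where 48 and 96 of 1601 repeats were. Both liver libraries were above both ysE libraries for 335 of 680 (49.3%), where 42.3% of these 2183 repeats were. Both cystic EB libraries were above both ysE libraries for 453 (66.6%), where 61.4% were, and above both liver libraries for 261 (38.4%), where 38.3% were. Without chromosomes 3, 4 and 6 the first of these was 214 of 478 (44.8%) against 39.0%. In these shares of copies without overlap between tissues the long copies were near all repeats or somewhat above them.

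Among the 46 long members with 50 reads in every library, the lowest and highest in ysE were named. An L1Md_A copy at chr5:91416970-91422968 was 54.0 and 31.0% methylated in ysE, then 50.4 and 75.4% in liver, then 59.7 and 62.8% in cystic EBs. An L1Md_T copy at chr1:138788820-138794659 was 40.9 and 48.9%, 60.9 and 67.2%, and 91.2 and 81.3% methylated in the same order. Its libraries did not overlap between tissues, but it was picked for its low level in ysE. The 95% Wilson intervals of ysE FxC (40.8 to 57.1%, 139 reads) and liver CxF (51.6 to 69.5%, 110 reads) overlapped. At the other end, an L1Md_A copy at chr11:92594568-92600610 was 91.2 and 100% methylated in ysE and an L1Md_F2 copy at chr8:71066215-71072464 was 94.0 and 94.9% methylated there, and both were at least 91.2% methylated in every library. Across long copies outside chromosomes 1 to 3, the correlation of log2 reads per kb in RNA with methylation in ysE was -0.07 over 243 L1Md_A copies and 0.21 over 190 L1Md_T copies. These values only describe copies that come from the same libraries and may share reads.

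H3K4me3, a histone mark of active promoters, overlapped few L1Md elements in the 1 sample of whole E12.5 VYS, for which there was no replicate. A peak overlapped 41 of 100781 members (0.0407%, 95% Wilson interval 0.0300 to 0.0552%), 3 of them long and all 3 L1Md_T. The share was 0.121% for L1 elements of other names and 0.508% for all repeats, from 22343 peaks. The part of sequencing reads that match many copies in these shares was not tested. The long ones were at chr2:84194920-84200364, chr14:120061919-120067169 and chr15:75523633-75528832. The second of these was 42.9 and 50% methylated in ysE (21 and 54 reads), 84.4 and 92.0% in liver (32 and 25 reads) and 92.2 and 86.0% in cystic EBs (115 and 93 reads). It was the only one of the 3 with both ysE libraries below all others.

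Genes that silence or restrict LINE-1 elements, listed with the 3 Tet genes, whose enzymes oxidise methylated cytosine towards its removal, differed between the tissues in both directions. Of 31 genes in the list, 30 were matched to a transcript and tested by edgeR over 23265 transcripts. In cystic EBs against ysE 11 were higher, where 33.7% of all transcripts tested were called higher, and 6 were lower, where 27.2% were called lower. Tet1 and Tet2 were among the 11. In VYS mesoderm against ysE 5 were higher, where 26.3% were, and 5 were lower, where 22.8% were. The share of the list that was called was thus near that of all transcripts or below it. RPKM of transcripts, as deposited, is given for those with the largest changes.

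Dnmt3l, a cofactor of the de novo DNA methyltransferases, stood at 30.7 and 12.505 RPKM in cystic EBs against 0.0250 and 0.00700 in ysE (5 and 2 counts) and 0.0780 and 0.0220 in VYS mesoderm. Apobec3, a cytidine deaminase that restricts retroelements, stood at 9.60 and 6.66 RPKM in cystic EBs, against 0.238 and 0.259 in ysE, with 3.41 and 2.91 in VYS mesoderm, 25.6-fold and 10.7-fold above ysE. Mael, a factor of the piRNA pathway of the germ line, had 375 and 386 counts in cystic EBs, against 0 and 7 in ysE, with 58 and 75 in VYS mesoderm. Dnmt3l and Mael were thus at or near 0 in ysE, while Apobec3 had 70 and 114 counts there. Piwil2, a Piwi protein that binds piRNAs, was higher in cystic EBs than in ysE (1.62 and 1.12 against 0.208 and 0.301 RPKM) and lower in VYS mesoderm (0.115 and 0.0740 RPKM). Tdrd9, a helicase of the piRNA pathway, and Atrx, a chromatin remodeller, were higher in VYS mesoderm than in ysE by 1.90 and 1.58 on the log2 scale (SE 0.48 and 0.23, edgeR adjusted p = 0.0142 and 0.00111). Atrx was also higher in cystic EBs than in ysE, by 1.99 (SE 0.23, edgeR adjusted p = 0.000341), while Tdrd9 was not called there (-0.38, adjusted p = 0.520).

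Several other members of the list were lower than in ysE in cystic EBs, in VYS mesoderm or in both. Tex19.1, which represses retrotransposons in germ cells and placenta, stood at 9.39 and 8.41 RPKM in ysE, 6.48 and 7.17 in cystic EBs and 0.952 and 0.940 in VYS mesoderm, and fell by 3.47 on the log2 scale in VYS mesoderm (SE 0.20, edgeR adjusted p = 4.31e-05). Dnmt3a, a de novo DNA methyltransferase, stood at 13.1 and 12.04 RPKM in ysE, 8.47 and 10.4 in cystic EBs and 6.76 and 7.72 in VYS mesoderm. Mov10, an RNA helicase that restricts LINE-1, stood at 13.8 and 16.5, 9.23 and 10.7, and 5.10 and 7.04 RPKM in the same order. Both were called lower than ysE in both groups. Ehmt2, a histone H3 lysine 9 methyltransferase, and Samhd1, a dNTPase that restricts LINE-1, fell in cystic EBs by 1.21 and 1.21 on the log2 scale (SE 0.17 and 0.19). Ehmt2 also fell in VYS mesoderm, by 0.95 (SE 0.17, edgeR adjusted p = 0.00329). Samhd1 did not, at 23.6 and 21.6 RPKM in VYS mesoderm against 17.2 and 19.7 in ysE. The ysE and VYS mesoderm libraries shared stage and strain and differed in tissue layer, whereas cystic EBs also differed from both in strain and in being grown in culture, and the tie between any of them and L1Md reads was not tested.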

How the data were processed

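RNA reads had been aligned with GSNAP (per the submitters' processing notes) to mm10, and the authors deposited raw counts per repeat element and per RefSeq transcript, and RPKM per transcript. How reads that match many copies were counted is not given in the sources used here. For methylation, each CpG on each strand has a methylated percent and a count of reads, both deposited by the authors. The H3K4me3 peaks carry a score as deposited by the authors, from MACS (version 1.4.2), and only their positions were used. Exon-part counts in 6 files were not used. RNA libraries without a column in the repeat table were not analysed here.

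Members, gene lists and tests were chosen with earlier results of these data known. Counts were tested with edgeR (version 4.0.16) quasi-likelihood fits with TMM factors and a minimum count of 10 over all repeat names, all elements or all transcripts. Long to short ratios (pseudocount 0.5, at least 50 reads per class) and methylation, as log2 of methylated plus 1 over unmethylated plus 1 (names with at least 100 reads), were tested with limma (version 3.58.1), all groups in 1 fit. DESeq2 (version 1.42.0) was an alternative, and each script was tested on simulated data, where the single-element test recovered none of the changes made in a sample of elements and the tests of names and transcripts on counts missed a part of them, and where false calls among transcripts were more than 5% of the calls. Other alternatives were RLE factors, count and read minimums, length limits, the percent scale and leaving out each library, and, chosen after seeing the data, leaving out chromosomes and scaling to transcripts. Calls are at 5% after Benjamini-Hochberg adjustment over all features tested. The labels do not tie replicates to separate animals beyond pooled litters, so p-values measure at most the spread between these libraries. The limma fits of methylation shared their estimate of the spread over all names tested (668, and 33 for long against short copies). Their p-values thus treat names as independent and can be too small for 2 libraries per tissue. Levels per kb were scaled to the counts on repeats other than RNA genes. Methylation used the 16 chromosomes with calls in every library.

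All L1Md names were described. Named single elements were the 3 long members with the highest mean CPM, the 2 largest called changes in each direction without overlap at a mean CPM of at least 0.5, and the 2 long members lowest and 2 highest in ysE methylation with 50 reads in every library. Named genes were the 4 largest called changes in each direction and Tex19.1. One marker of the lists is not reported here.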

Additional observations from a re-analysis of the deposited data

Results flagged for a closer look

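The ratio of long to short L1Md reads differed between tissues in a direct limma test for these names. In cystic EBs against ysE the log2 difference was 0.59 for L1Md_T, 0.49 for L1Md_A, 0.47 for L1Md_F2 and -0.35 for L1Md_Gf. In VYS mesoderm against ysE it was 0.48 for L1Md_F2, the same as the median of 0.48 over all 65 names tested. In cystic EBs against VYS mesoderm it was 0.65 for L1Md_T, 0.43 for L1Md_A and -0.34 for L1Md_Gf. Without chromosomes 1 to 3 the direction for L1Md_Gf turned, to 0.06 against ysE and 0.21 against VYS mesoderm (limma adjusted p = 0.836 and 0.477). The medians over all names were 0.37 in cystic EBs against ysE and -0.08 in cystic EBs against VYS mesoderm. The part of read assignment among near-identical copies in these values was not tested.

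The difference in methylation between long and short copies, on the log2 ratio scale, also differed between tissues. Between ysE and liver it was wider in ysE by 0.32 for L1Md_A and 0.28 for L1Md_T. Between cystic EBs and liver it was -0.41 for L1Md_T. Between cystic EBs and ysE it was -0.69 for L1Md_T, -0.45 for L1Md_F3, -0.42 for L1Md_A and -0.28 for L1Md_F2. Reads fell unevenly along the 4760 long copies that were split by their CpG-call-rich end. In ysE the first kb held 80805 and 66516 reads and the rest 20647 and 21078. In liver these were 86834 and 116697 against 40775 and 56540, and in cystic EBs 120311 and 90671 against 80188 and 87819. In ysE the rest of L1Md_A and L1Md_T was not above their short copies. The part of where reads fell along the long copies in these values was not tested.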

How the results depend on the processing

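Of 266 alternative values of the counts of calls, 205 stayed within 1.5 times the reported count. Without chromosomes 1 to 3, no name on reads was called between cystic EBs and VYS mesoderm (2 at an unadjusted p under 0.05), and DESeq2 called 2. The long to short ratio gave 2 names in cystic EBs against ysE with a limit of 6 kb and 2 without the most-read 1% of elements, which left 0 in VYS mesoderm against ysE. Single elements gave 4984, 1382 and 393 calls (cystic EBs against ysE, VYS mesoderm against ysE, cystic EBs against VYS mesoderm) with a minimum count of 30 and 3712, 987 and 1122 by DESeq2. In VYS mesoderm against ysE both turned the balance to higher, and fitting only these groups gave 0. Methylation between cystic EBs and liver gave 1 name on the percent scale, 0 by the median over elements and 2 without chromosomes 3, 4 and 6. The long minus short difference between ysE and liver gave 0 names at 3 kb, 0 at 6 kb and 1 without chromosomes 1 to 3, that between cystic EBs and liver gave 3 on the percent scale, and that between cystic EBs and ysE gave 1 at 6 kb. The L1Md_Gf ratio reversed to 0.057 and 0.21 without chromosomes 1 to 3. The cause was not tested.

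Leaving out 1 library at a time gave 3 to 6, 0 to 6 and 0 to 1 names on reads in the 3 comparisons, in the order above, 2 to 4, 0 to 1 and 2 to 3 ratios, and 0 to 0 single elements in each. It gave 4 to 6, 0 to 4 and 6 to 6 names on methylation (ysE against liver, cystic EBs against liver, cystic EBs against ysE), 4 to 4, 3 to 4 and 1 to 3 long to short differences in ysE, liver and cystic EBs, and 0 to 3, 0 to 3 and 1 to 4 between tissues. Gene calls ranged from 12 to 20 and 9 to 15.

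Shared library letters and crosses showed no pairing in deviations across repeat names (correlations 0.00918 for A and B, and -0.0537, 0.0579 and 0.0309 for the crosses). A shift common to all names cannot be seen by this check. With the replicate block, single elements fell to 0 calls in cystic EBs against ysE and 0 in VYS mesoderm against ysE, and the other counts stayed within 1.5 times. WGBS depth limits single copies, since 748 of the 73169 members on the 16 chromosomes used had 20 reads in every library.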
